A study of Mus musculus with 4 samples.

Results

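The data described here are the reads of 10 transcripts by which macrophages of the mouse spleen are known, measured in RNA of sorted splenic regulatory T cells (Treg cells, a suppressive class of CD4 T cell defined by the factor Foxp3). The 10 genes are Spic, Hmox1, Vcam1, C1qa, C1qb, C1qc, Adgre1, Mrc1, Cd68 and Csf1r. They were chosen by name, and all 10 are among the 20837 genes of the deposited count table. The study compared 2 libraries from mice labelled Foxp3YFP-CreKmt2d+/+ (WT) with 2 from mice labelled Foxp3YFP-CreKmt2dfl/fl (cKO). Both groups thus carry the Foxp3 YFP-Cre allele, which expresses Cre recombinase in Foxp3-positive cells, and only the cKO mice carry loxP-flanked Kmt2d, the gene of a histone H3 lysine 4 methyltransferase. The age and sex of these mice are not taken from the labels, because the extraction protocol there is about cultured bone marrow macrophages of a different knockout. The sample fields for tissue, cells and genotype say otherwise and were followed. Whether libraries of the same group came from separate mice is not stated, so p-values measure a spread between libraries that could be technical.

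The spleen filters blood, and the macrophages of its red pulp engulf aged red cells, break down their heme and return the iron to the blood. The transcription factor SPI-C is required for these cells, and VCAM-1, the mannose receptor and F4/80 are among the surface proteins by which they are recognised. Tissue macrophages are also the main source of C1q, the recognition protein that starts the classical complement pathway, and depend on signals through the CSF-1 receptor. Several of the 10 genes are used by other cells as well: Vcam1 by stroma and endothelium, Csf1r by monocytes, Cd68 by many myeloid cells and Hmox1 by many stressed cells.

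The upstream sequences of 4 of the genes are shown because they belong to transcripts that moved together (C1qb and C1qc), to the factor that marks red pulp macrophages (Spic) and to the gene that followed the others least (Cd68). Each is the 250 bases before a RefSeq transcription start in GRCm38.p6, 5′ to 3′ on the gene's strand, from a table that matched 5 of the 10 genes. For C1qc the start in that table, at 136892914, lies inside the annotated span of the gene, so that the first 22 bases before it belong to that span. The other windows end at the base before their gene's span. Capitals mark GAGGAA, the purine-rich core that the ETS factors PU.1 and SPI-C are known to recognise, searched on both strands and so written TTCCTC where it lies on the opposite one.
C1qb, chr4:136886201-136886450, minus strand: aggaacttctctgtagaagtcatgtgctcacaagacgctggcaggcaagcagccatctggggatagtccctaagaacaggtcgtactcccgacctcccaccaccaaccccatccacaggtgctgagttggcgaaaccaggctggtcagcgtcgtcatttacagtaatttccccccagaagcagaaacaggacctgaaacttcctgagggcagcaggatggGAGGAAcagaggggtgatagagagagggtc
C1qc, chr4:136892915-136893164, minus strand: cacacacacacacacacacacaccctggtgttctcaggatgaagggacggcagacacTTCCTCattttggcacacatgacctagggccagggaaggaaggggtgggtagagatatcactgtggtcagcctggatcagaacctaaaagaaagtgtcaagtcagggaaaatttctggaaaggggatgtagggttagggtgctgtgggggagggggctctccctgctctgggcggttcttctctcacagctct
Spic, chr10:88683024-88683273, minus strand: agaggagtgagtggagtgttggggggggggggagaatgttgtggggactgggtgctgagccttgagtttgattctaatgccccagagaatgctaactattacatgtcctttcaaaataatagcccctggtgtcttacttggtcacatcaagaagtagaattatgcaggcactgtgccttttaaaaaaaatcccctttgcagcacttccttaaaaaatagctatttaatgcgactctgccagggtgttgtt
Cd68, chr11:69666171-69666420, minus strand: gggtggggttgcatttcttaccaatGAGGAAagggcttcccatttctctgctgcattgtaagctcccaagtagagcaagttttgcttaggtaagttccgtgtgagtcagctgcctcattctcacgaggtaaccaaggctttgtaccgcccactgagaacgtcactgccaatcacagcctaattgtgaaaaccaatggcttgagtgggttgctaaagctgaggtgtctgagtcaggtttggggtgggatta

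Counted from these starts, the GAGGAA core lay 30 to 25 bases before the start in C1qb, 193 to 188 bases before it in C1qc and 225 to 220 bases before it in Cd68, once in each, and it was not among these letters for Spic. The window of Mrc1, which also matched, held it 3 times. Of 32851 RefSeq promoter windows of the same length, 23.3% held this core. The antioxidant response core TGACNNNGC was in the C1qb window and in 10.2% of all windows. The motifs did not overlap. These matches describe the letters of the windows and are not evidence of binding.

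The libraries held 28442416 to 35560491 counts each, so 1 read stands for 0.0288 to 0.0344 CPM (counts scaled to library size, with TMM factors), the unit of all levels below. For the targeted gene Kmt2d the WT libraries had 721 and 704 CPM and the cKO libraries 836 and 793 CPM. The edgeR test described below called Kmt2d higher in cKO (log2 fold change 0.19, SE 0.05, edgeR adjusted p = 0.0375). Since reads from exons that are not deleted still count, this does not check the labels. T cell transcripts were abundant, with 4781 to 6169 CPM in sum over 12 pan T cell genes. The 10 macrophage genes together took 0.0425% and 0.0656% of all counts in WT and 0.0507% and 0.0345% in cKO. In these bulk samples fewer cells of a type and less RNA per cell cannot be told apart.

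All 10 macrophage transcripts were detected in every library, at levels between 4.84 CPM (Spic in cKO 2) and 151 CPM (Csf1r in WT 2). Per kilobase of annotated exon (GENCODE M21), the mean level over the 4 libraries was highest for Hmox1, with 36.2 CPM per kb, and for the 3 C1q genes, with 36.0 (C1qb), 35.1 (C1qa) and 32.3 (C1qc). Cd68 had 24.8, Csf1r 23.6, Vcam1 19.2, Adgre1 10.6, Mrc1 5.44 and Spic 4.04 CPM per kb. For each pair of neighbours in this order the ranges over the 4 libraries overlapped. Within each library, however, C1qb, C1qa and C1qc kept this order, as did Csf1r, Vcam1, Adgre1, Mrc1 and Spic. On the same scale the T cell receptor component Cd3e had 263 CPM per kb and Foxp3 53.5 CPM per kb.

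The 2 libraries of a group differed from each other in all 10 transcripts, and in the same order. WT 2 was above WT 1 and cKO 1 above cKO 2 for 10 of 10, which was the case for 35.8% of the 13861 genes tested. The ratio of WT 2 to WT 1 ran from 1.21 (Hmox1) to 1.86 (Mrc1), and that of cKO 1 to cKO 2 from 1.18 (Cd68) to 1.86 (Mrc1). For 9 of the 10, WT 2 was the highest and cKO 2 the lowest library, against 10.6% of genes tested, and Cd68 was highest in cKO 1 and lowest in WT 1. The middle libraries were less separated: WT 1 was above cKO 1 for 5 of the 10 transcripts, and their ratio ran from 0.69 (Csf1r) to 1.22 (Spic).

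**Figure D1:**
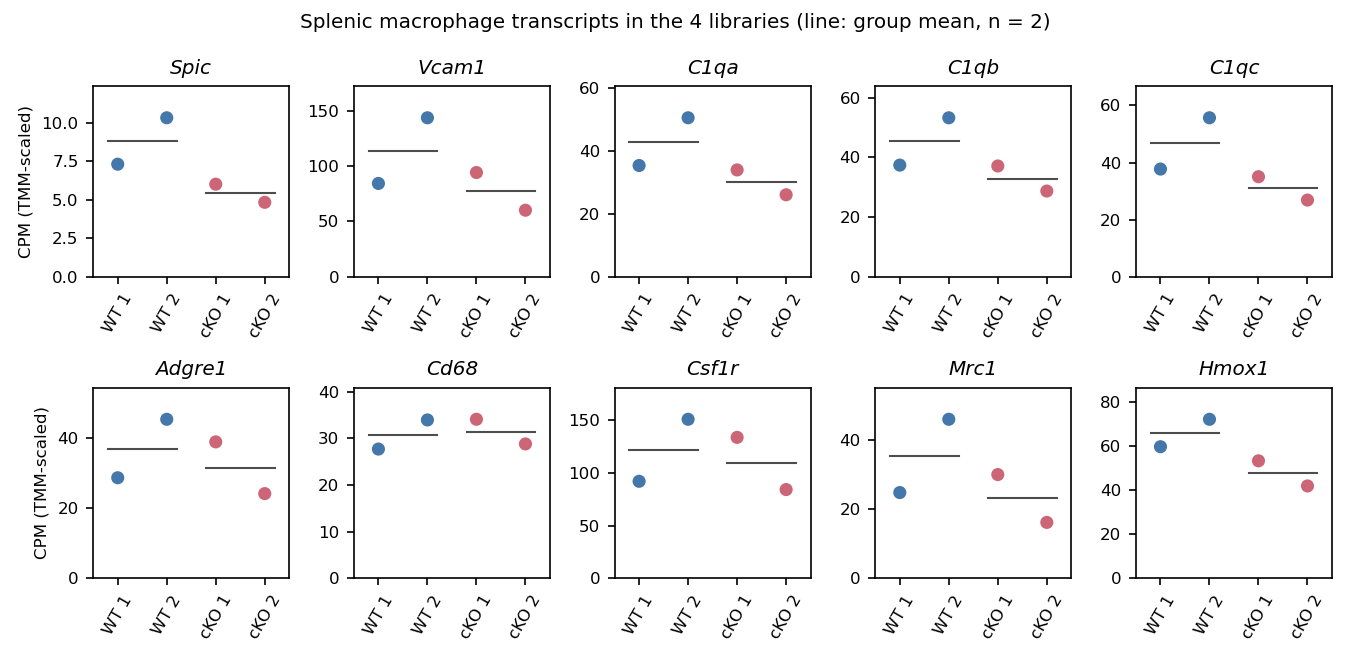
Level of each of the 10 transcripts in each library (vertical axis, TMM-scaled CPM from 0; horizontal axis, library; blue WT, red cKO; line, mean of the 2 libraries of a group). WT 2 lies above WT 1 and cKO 1 above cKO 2 in all 10 panels, and the groups overlap for Vcam1, Adgre1, Cd68, Csf1r and Mrc1.

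Between the groups, 1 of the 10 transcripts was called lower in cKO, Hmox1, and 0 were called higher (edgeR quasi-likelihood test, Benjamini-Hochberg adjusted p under 0.05 over all genes tested; 31.6% of genes tested were called either way and 15.1% lower). At an unadjusted p under 0.05 the edgeR test had 4 lower (19.7% of genes tested) and 0 higher (22.7%), at an adjusted p under 0.10 it had 3 lower (18.8%), and DESeq2 called 0 higher (9.05% of its genes). The groups did not overlap for 5 of the 10 (Spic, Hmox1, C1qa, C1qb and C1qc), each lower in cKO, a pattern held by 30.9% of genes tested. The median log2 fold change of the 10 was -0.49, beside 0.0003 for all genes tested. The count depends on the test and the libraries: DESeq2 called 5 of the 10 lower (11% of its genes) and the edgeR test without a filter on low counts 7 (11% of its genes). With the filter, edgeR called 4 lower without WT 1 (6.97% of genes), 0 without WT 2 (9.58%), 1 without cKO 1 (7.37%) and 0 without cKO 2 (8.94%). Each of these omissions leaves 1 library in a group, which is assumed to vary like those of the other group.

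**Figure D2:**
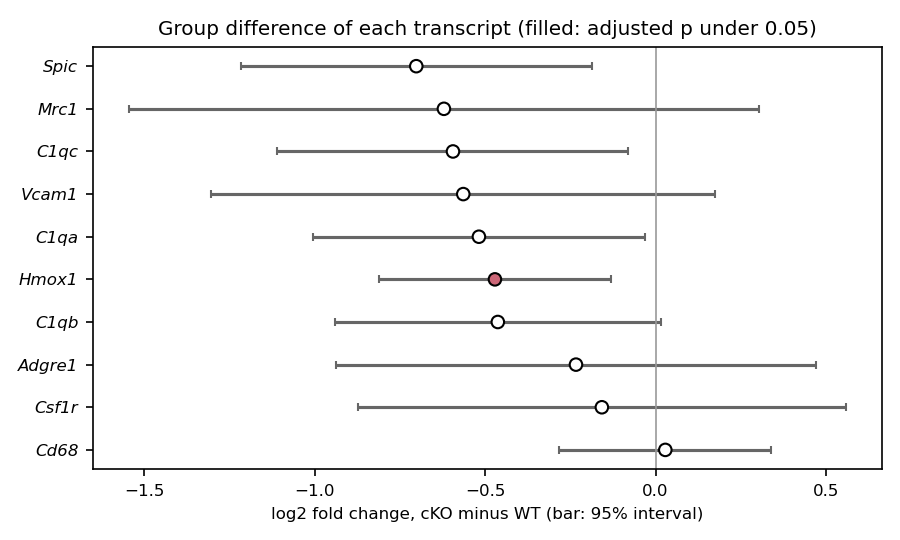
Log2 fold change of each transcript, cKO minus WT (horizontal axis; points, edgeR estimates from 2 against 2 libraries; bars, 95% intervals; filled point, adjusted p under 0.05). Of the 10 estimates 9 lie below 0, and only that of Hmox1 was called.

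Spic (gene number 20728, mm10 chromosome 10, 88675269 to 88683023) encodes the ETS family factor required for red pulp macrophages. It measured 7.32 and 10.3 CPM in WT and 6.02 and 4.84 CPM in cKO. Both cKO values were below both WT values, at the lowest level among the 10 genes. The log2 fold change was -0.70 (SE 0.21, edgeR adjusted p = 0.0503), just outside the threshold. DESeq2 (adjusted p = 0.0482), the edgeR test without a filter (adjusted p = 0.00212) and edgeR without WT 1 (adjusted p = 0.0377) placed it inside. It stayed outside without WT 2 (log2 fold change -0.44, edgeR adjusted p = 0.188), without cKO 1 (0.0617), without cKO 2 (0.175) and with a replicate block (0.115).

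Among the other ETS factors, 2 of 15 tested were called higher (16.5% of all genes) and 8 lower (15.1% of all genes). The 2 higher genes were Spi1, which encodes the myeloid and B cell factor PU.1, and Spib, of B cells and plasmacytoid dendritic cells. Spi1 measured 19.0 and 20.5 CPM in WT and 39.2 and 35.9 CPM in cKO, a log2 fold change of 0.92 (SE 0.08, edgeR adjusted p = 0.00338). Spib had a log2 fold change of 1.15 (SE 0.25). In these libraries transcripts of neutrophils, monocytes and B cells, which also express Spi1, were higher in cKO as well, with values given below, and their part in this result was not tested. Etv3, Etv5 and Elk3 fell by 0.42, 0.53 and 0.28 on the log2 scale.

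Hmox1 (gene number 15368, chromosome 8, 75093618 to 75100593) encodes heme oxygenase 1, which splits heme into iron, carbon monoxide and biliverdin. Its levels were 59.8 and 72.3 CPM in WT and 53.4 and 42.0 CPM in cKO. The groups did not overlap, and the gap between WT 1 and cKO 1 was smaller than that between the 2 libraries of either group. Its log2 fold change was -0.47 (SE 0.14, edgeR adjusted p = 0.0487). The call rests on few libraries: leaving out WT 1 gave an edgeR adjusted p of 0.0546, leaving out WT 2 gave 0.182 and leaving out cKO 2 gave 0.141 with a log2 fold change of -0.31, while leaving out cKO 1 gave 0.0182. Upper-quartile scaling gave an edgeR adjusted p of 0.0564 and the replicate block 0.0974. DESeq2 (adjusted p = 0.00443) and the edgeR test without a filter (adjusted p = 0.000526) kept the call.

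Of 21 other tested genes listed for heme and iron handling, 3 were called higher, 3 lower and 15 neither (28.6% called, 31.6% of all genes). The 15 include Hbp1, which encodes an HMG-box transcription factor and is not a heme or iron gene. Their median log2 fold change was -0.05. The iron exporter gene Slc40a1 (ferroportin), a known transcript of red pulp macrophages, measured 39.6 and 57.9 CPM in WT and 40.4 and 27.3 CPM in cKO, with WT 2 highest and cKO 2 lowest, and was not called (log2 fold change -0.53, SE 0.24). The heme transporter gene Slc48a1 (log2 fold change -0.05) and the biliverdin reductase genes Blvra (-0.10) and Blvrb (-0.25) did not pass either. Among those that passed, Nfe2l2, which encodes the oxidative stress factor NRF2, rose by 0.37 and Alas1, the first enzyme of heme synthesis, by 0.36, while the iron transporter gene Slc11a2 fell by 0.33 and Fech, the last enzyme of heme synthesis, by 0.32. The ferritin heavy chain gene Fth1 fell by 0.23.

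C1qa, C1qb and C1qc (gene numbers 12259, 12260 and 12262) lie side by side on chromosome 4, at 136895916 to 136898844, 136880126 to 136886200 and 136889801 to 136892936, and encode the 3 chains that assemble into C1q. C1qa measured 35.4 and 50.6 CPM in WT and 34.0 and 26.1 CPM in cKO. C1qb measured 37.4 and 53.3 CPM in WT and 37.1 and 28.7 CPM in cKO. C1qc measured 37.7 and 55.7 CPM in WT and 35.0 and 26.8 CPM in cKO. For each chain WT 2 stood above the other 3 libraries, while WT 1 and cKO 1 were close to each other. The log2 fold changes were -0.52 (SE 0.20) for C1qa, -0.46 (SE 0.19) for C1qb and -0.59 (SE 0.21) for C1qc, with edgeR adjusted p of 0.1004, 0.128 and 0.0809. DESeq2 called all 3 lower (adjusted p = 0.0222, 0.0412 and 0.0084), as did edgeR without a filter and edgeR without WT 1. Omitting WT 2 changed the estimates to -0.24, -0.19 and -0.29 and omitting cKO 2 to -0.34, -0.29 and -0.41, and edgeR then called none of the 3.

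The 3 chains kept nearly the same proportions while their summed level varied between 81.6 and 160 CPM. C1qa made up 32.0% and 31.7% of the C1q reads in WT and 32.0% and 31.9% in cKO. The share of C1qb was 33.8% and 33.4% in WT and 35.0% and 35.2% in cKO, and that of C1qc 34.1% and 34.9% in WT and 33.0% and 32.9% in cKO. Both cKO shares were thus above both WT shares for C1qb and below both for C1qc, without a test. The widest gap, in C1qc between WT 2 (exact 95% binomial interval 33.6% to 36.3%) and cKO 2 (31.2% to 34.7%), lay within overlapping intervals, which cover counting error only. Such an overlap does not show that the shares were equal.

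Reads of the other transcripts were set against every 100 reads of the 3 C1q genes to see which kept a fixed ratio to them. Spic had 6.62 and 6.48 such reads in WT and 5.67 and 5.93 in cKO, so that its highest ratio was 1.17 times its lowest. Both cKO ratios of Spic were below both WT ratios, without a test. Hmox1 varied 1.19-fold, Vcam1 1.22-fold and Mrc1 1.46-fold, with overlapping groups. Csf1r had 83.2 and 94.5 in WT and 126 and 103 in cKO, and Cd68 25.1 and 21.3 in WT and 32.1 and 35.3 in cKO. These 2 and Adgre1 (25.9 and 28.3 against 36.6 and 29.5) were thus higher relative to C1q in both cKO libraries, without a test, since the ratios share their denominator.

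**Figure D3:**
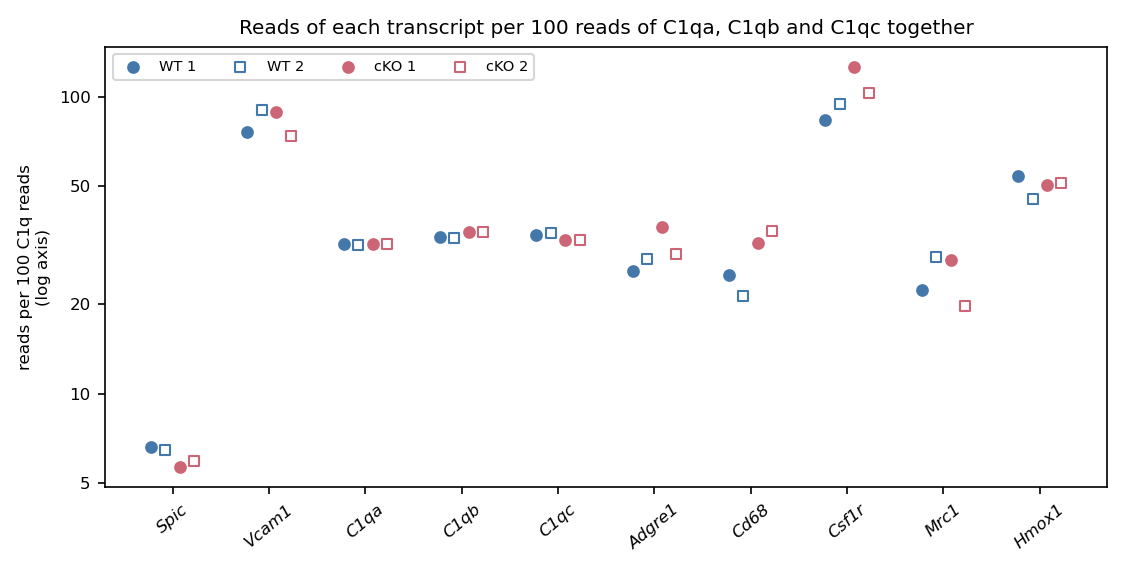
Reads of each transcript per 100 reads of C1qa, C1qb and C1qc together (vertical log axis) in each library (circles, replicate 1; squares, replicate 2; blue WT, red cKO). The C1q chains vary at most 1.06-fold, Spic 1.17-fold, Hmox1 1.19-fold and Vcam1 1.22-fold. Cd68 spans 21.3 to 35.3, Csf1r 83.2 to 126, Adgre1 25.9 to 36.6 and Mrc1 19.8 to 28.8.

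Elsewhere in the complement system, 9 of 16 tested genes were called higher in cKO, 1 lower and 6 neither (62.5% called, 31.6% of all genes; median log2 fold change 0.57). C3, the central component of the cascade, rose from 33.8 and 37.1 CPM in WT to 77.7 and 77.3 CPM in cKO (log2 fold change 1.13, SE 0.06, edgeR adjusted p = 0.00205). C4b rose by 1.91 on the log2 scale, Cd93, a receptor of myeloid and endothelial cells, by 1.28 and the complement receptor gene Cr2 of B cells by 1.31. C1qbp, a mitochondrial protein named for binding C1q, rose by 0.30. C1s1, one of the proteases that partner C1q, had 4 counts over the 4 libraries, and C1ra was between 0.317 and 1.10 CPM. The neutrophil, monocyte and B cell transcripts given below were higher in the same libraries, and their part in these rises was not tested.

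Vcam1 (gene number 22329, chromosome 3, 116110020 to 116129688) encodes the adhesion molecule that binds the integrin α4β1. It measured 84.3 and 144 CPM in WT and 94.2 and 60.1 CPM in cKO. WT 1 lay below cKO 1, so that the groups overlapped, and the log2 fold change of -0.56 (SE 0.30, 95% interval -1.30 to 0.18) did not pass (edgeR adjusted p = 0.217). It was -0.13 without WT 2, -0.27 without cKO 2, -0.90 without WT 1 and -0.93 without cKO 1, and edgeR without a filter called it (adjusted p = 0.0148). The gene Gm43109 overlaps it on the opposite strand, and reads of the 2 cannot be told apart if strand was not used. Of 15 tested genes of integrins, adhesion ligands and selectins, 4 were called higher, 2 lower and 9 neither (40% called, 31.6% of all genes). The α4 integrin gene Itga4, at 931 to 1076 CPM, and Itgb1 (630 to 689 CPM), whose products pair as the VCAM-1 receptor, had log2 fold changes of -0.15 and 0.05 and did not pass. Itgb7 fell by 0.40 and Itgal by 0.47, and the myeloid integrin genes Itgam and Itgax rose by 1.37 and 0.78. The 11 stroma and endothelium genes of the table summed to between 169 and 192 CPM, of which Pecam1, a gene that leukocytes express as well, made up 161 to 185 CPM. Stab2, of sinusoidal endothelium, was between 3.01 and 5.25 CPM and Cdh5 between 0.984 and 1.45 CPM, and Ccl19 had 1 count and Madcam1 4 counts over all libraries. Their part in the level of Vcam1 was not tested.

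Adgre1 (gene number 13733, chromosome 17, 57358581 to 57483529) encodes F4/80, an adhesion G protein-coupled receptor by which mouse macrophages are recognised. Its levels were 28.6 and 45.2 CPM in WT and 38.8 and 24.1 CPM in cKO. Each group spanned most of the range of the other, with a log2 fold change of -0.23 (SE 0.29, 95% interval -0.94 to 0.47, edgeR adjusted p = 0.618). The estimate was 0.13 without WT 2 and 0.07 without cKO 2, against -0.53 without WT 1 and -0.62 without cKO 1. Of 13 other adhesion G protein-coupled receptor genes tested, 2 were called higher and 11 neither (15.4% called, 31.6% of all genes). The 2 were Adgrg3, which rose by 2.89, and Adgrg5, which rose by 0.78. Adgrg3 is known from neutrophils. In the same libraries 14 of 14 neutrophil genes were called higher (16.5% of all genes), and their part in this rise was not tested.

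Mrc1 (gene number 17533, chromosome 2, 14229414 to 14332023) encodes the mannose receptor CD206, which takes up glycoproteins with exposed mannose. It measured 24.8 and 46.0 CPM in WT and 30.0 and 16.1 CPM in cKO, the widest relative range among the 10 genes. The groups overlapped, and its log2 fold change of -0.62 (SE 0.37, 95% interval -1.55 to 0.30) did not pass (edgeR adjusted p = 0.274). It was -0.11 without WT 2, -0.24 without cKO 2, -1.004 without WT 1 and -1.13 without cKO 1, and edgeR without a filter called it (adjusted p = 0.0330). The microRNA gene Mir511 lies within it on the same strand. Among other scavenger and lectin receptors, 7 of 14 tested were called higher and 7 neither (50% called, 31.6% of all genes). The lectin gene Clec12a rose by 1.18 (SE 0.13), Clec4a1 by 1.10 (SE 0.15), the galectin gene Lgals3 by 0.80 (SE 0.08) and the lipoprotein receptor gene Scarb1 by 0.43 (SE 0.07). In the same libraries 14 of 14 neutrophil, 8 of 12 monocyte and 6 of 11 conventional dendritic cell genes were called higher, and their part in these rises was not tested.

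Cd68 (gene number 12514, chromosome 11, 69664213 to 69666170) encodes a lysosomal glycoprotein of the LAMP family found in macrophages and other myeloid cells. It measured 27.7 and 34.0 CPM in WT and 34.1 and 28.8 CPM in cKO. The group means were 30.8 ± 4.42 CPM and 31.5 ± 3.74 CPM (SD, n = 2 each), and the log2 fold change was 0.03 (SE 0.13, 95% interval -0.28 to 0.34, edgeR adjusted p = 0.908). It was the only one of the 10 with an estimate above 0, a sign that turned without WT 1 (-0.11) and without cKO 1 (-0.10). Of 23 lysosomal genes tested, 5 were called higher, 4 lower and 14 neither (39.1% called, 31.6% of all genes; median -0.03). Lamp2 rose by 0.60, Psap by 0.34 and Laptm5 and Gla fell by 0.44 and 0.81, while the macrophage protease genes Ctsb (-0.13) and Ctsd (-0.16) did not pass.

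Csf1r (gene number 12978, chromosome 18, 61105572 to 61131139) encodes the receptor tyrosine kinase for the growth factors CSF-1 and interleukin 34. It measured 92.0 and 151 CPM in WT and 134 and 84.1 CPM in cKO. Here WT 1 was closer to cKO 2 than to WT 2, and the log2 fold change of -0.16 (SE 0.29, 95% interval -0.87 to 0.56) did not pass (edgeR adjusted p = 0.759). Without WT 2 the estimate was 0.24 and without cKO 2 it was 0.14, against -0.47 without WT 1 and -0.53 without cKO 1. The gene Hmgxb3 overlaps Csf1r on the opposite strand.

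Of its 2 ligands, Csf1 fell from 38.0 and 33.4 CPM in WT to 15.5 and 18.9 CPM in cKO, a log2 fold change of -1.05 (SE 0.12, edgeR adjusted p = 0.00477). Il34 had 1 count over the 4 libraries. Csf1 is known to be made by activated T cells as well as by stroma. The groups did not overlap for Csf1, whereas they did for its receptor. Of 21 tested genes of CSF-1 receptor signalling and related myeloid receptors, 11 were called higher, 5 lower and 5 neither (76.2% called, 31.6% of all genes; median 0.54). The granulocyte growth factor receptor gene Csf3r rose by 1.09, the adaptor gene Tyrobp by 0.73 and Kit by 0.85, and the kinase gene Src fell by 1.07. Csf3r is also in the neutrophil list and Kit in the basophil and mast cell list, and 14 of 14 neutrophil, 8 of 12 monocyte and 8 of 9 basophil and mast cell genes were called higher in the same libraries. Their part in these rises was not tested.

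Of 15 other tested transcripts of splenic macrophage subtypes, edgeR called 4 lower (15.1% of all genes) and 11 neither. In total 26.7% were called (31.6% of all genes), and the median log2 fold change was -0.17. Axl, a receptor for apoptotic cells that other cells also express, fell from 98.9 and 121 CPM in WT to 51.0 and 41.5 CPM in cKO (log2 fold change -1.25, SE 0.13, edgeR adjusted p = 0.0044). Marco and Cd209b, receptors of marginal zone macrophages, fell by 0.89 (SE 0.18) and 1.24 (SE 0.33), the latter from 44 counts in WT to 18 in cKO. The ficolin gene Fcna fell by 0.74 (SE 0.22, edgeR adjusted p = 0.0491). The metallophilic macrophage gene Siglec1 had 6.37 and 3.68 CPM in WT and 6.84 and 10.3 CPM in cKO, and Timd4 4.00 and 3.25 against 4.64 and 5.30 CPM. Neither passed (log2 fold changes 0.77, SE 0.31, and 0.45, SE 0.17). Both were lowest in WT 2, the library in which 9 of the 10 transcripts were highest. Cd5l was lowest in WT 2 as well, with 17.9 and 13.6 CPM in WT and 16.9 and 21.7 CPM in cKO. It did not pass either (log2 fold change 0.30, SE 0.17). Vsig4 had 1 count in WT and 14 in cKO and was not tested. Of the 15 tested, 9 were highest in WT 2 and lowest in cKO 2 (10.6% of all genes tested). In 3 of the 15, WT 1 was above WT 2 and cKO 2 above cKO 1 (31.5% of all genes tested).

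The genes whose profile over the 4 libraries lay closest to that of the summed C1q genes were Gm38250, Dmpk, Tbxas1, Spic and Hebp1, at Euclidean distances of 0.064, 0.082, 0.12, 0.13 and 0.13 (log2 CPM centred over the libraries, over 11923 genes of at least 1 CPM on average). Spic was thus the fourth and Hmox1 the 21st nearest, whereas Cd68 ranked 3183. Closest to Csf1r were Nr1h3, Trpm2, Adam1a, Tmod4 and Adgre1, at distances of 0.040, 0.067, 0.080, 0.082 and 0.092. With 4 libraries such a distance describes these libraries and cannot be tested.

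Lists of other cell types differed in how far they followed the macrophage transcripts. WT 2 above WT 1 and cKO 1 above cKO 2 was the order of 8 of 11 conventional dendritic cell genes and 7 of 12 monocyte genes, against 35.8% of all genes tested, and of 1 of 12 pan T cell, 1 of 14 neutrophil and 2 of 11 B and plasma cell genes. WT 2 highest and cKO 2 lowest was found in 0 of the 11 dendritic cell and 1 of the 12 monocyte genes (10.6% of all genes tested). Erythroid and platelet genes summed to 681 and 244 CPM in WT and 186 and 528 CPM in cKO, with WT 1 above WT 2 and cKO 2 above cKO 1 in 9 of 9 genes tested, the reverse of the macrophage genes. The 8 Treg genes showed that same within-group order in 8 of 8, against 31.5% of all genes tested. Ctla4, for example, had 1127 and 741 CPM in WT and 645 and 1002 CPM in cKO.

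Transcripts of neutrophils rose in all 14 genes of that list (16.5% of all genes tested were called higher), and their sum went from 83.4 and 215 CPM in WT to 680 and 1460 CPM in cKO. Of the monocyte genes 8 of 12 rose, among them Lyz2, at 261 and 286 CPM in WT and 584 and 544 CPM in cKO, and Ly6c2, which rose by 1.56. In the B and plasma cell list 3 of 11 rose, with sums of 538 and 643 CPM in WT and 789 and 907 CPM in cKO. Of these sums Jchain made up 322 and 385 CPM in WT and 525 and 536 CPM in cKO. Conventional dendritic cell genes rose in 6 of 11, plasmacytoid dendritic cell genes in 3 of 8, NK and CD8 T cell genes in 9 of 10 and basophil and mast cell genes in 8 of 9. Of the 10 macrophage transcripts 0 were called higher, and their sum was 435 and 662 CPM in WT and 496 and 342 CPM in cKO. Pan T cell genes fell in 9 of 12 (15.1% of all genes; median log2 fold change -0.32), and of 6 tested stroma and endothelium genes none was called by edgeR or DESeq2 or had an unadjusted edgeR p under 0.05. No marker in the T, B, NK, myeloid or erythroid lists was at 0 in all libraries of a group. Their part in the values of the 10 transcripts was not tested.

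**Figure D4:**
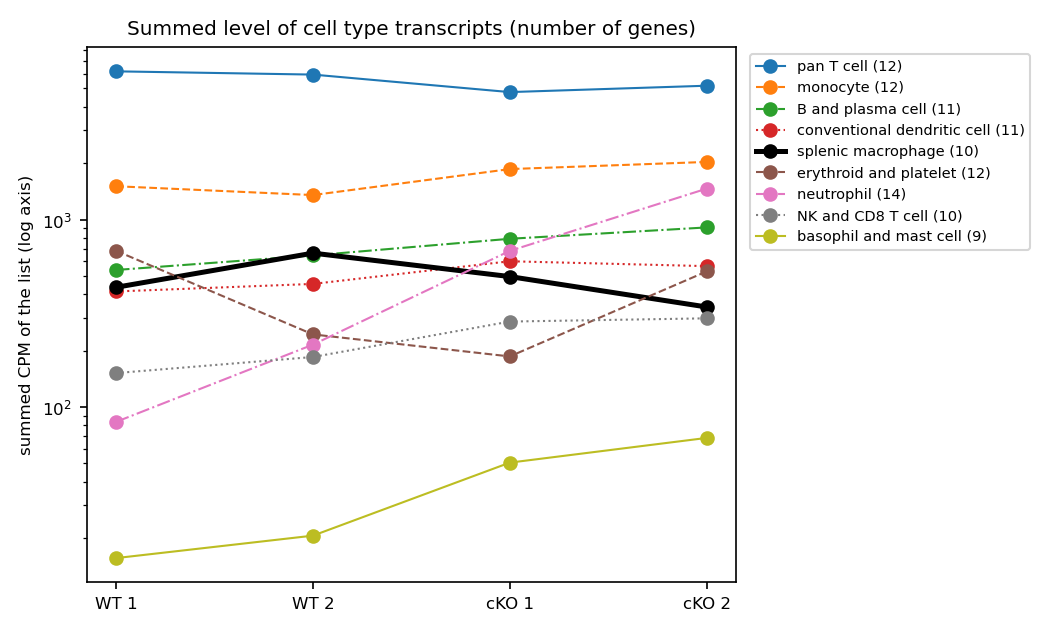
Summed CPM of cell type transcript lists (vertical log axis; number of genes in brackets) in each library (horizontal axis). A sum can rest on 1 gene: the monocyte sum holds Nr4a1 at 858 to 1110 CPM, and the B and plasma cell sum holds Jchain at 322 to 536 CPM. The black line of the 10 macrophage transcripts peaks in WT 2 at 662 CPM and is lowest in cKO 2 at 342 CPM, while neutrophil transcripts sum to 83.4 CPM in WT 1 and 1460 CPM in cKO 2.

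In a list of 15 genes abundant in cultured macrophages, 4 of which are among the 10, 4 were called higher and 11 neither (26.7% called, 31.6% of all genes). Ctsd was between 307 and 387 CPM, Lyz2 between 261 and 584 CPM and Apoe between 114 and 163 CPM. Trem2 was between 0.174 and 0.394 CPM, Spp1 between 0.778 and 3.54 CPM and Gpnmb between 3.51 and 4.64 CPM, beside 367 to 404 CPM of Cd3e. Lyz2 is shared with monocytes and neutrophils, and Ctsd is a lysosomal protease of many cells. Of the 15 genes, 13 had WT 2 above WT 1 and cKO 1 above cKO 2 (35.8% of all genes tested). These 13 include the 4 that are among the 10.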

How the data were processed

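The authors deposited 1 table of raw read counts per gene (whole numbers, not normalised) for 4 libraries. Per the submitters' processing notes, the build was mm10. No aligner, counting tool, annotation or strand setting is given in the sources used here. Groups follow the titles and genotype fields. The 10 transcripts and all lists were chosen with earlier results of these data known.

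Genes were kept by filterByExpr (minimum count 10, minimum total 15), leaving 13861, among them all 10 transcripts. edgeR 4.0.16 in R 4.3.3 compared cKO with WT (TMM, glmQLFit, glmQLFTest, group only, 2-sided, Benjamini-Hochberg). SE is the absolute log2 fold change over the square root of F. DESeq2 1.42.0, limma-voom (limma 3.58.1), other scalings and filters, thinning, a replicate block and leaving out each library were alternatives. Coordinates came from RefSeq GRCm38.p6, matched by gene number for 20303 of 20837 genes. Exon lengths came from GENCODE M21. Named genes are the 10, then up to 4 per list with the smallest p, the most abundant markers and the 5 nearest profiles. Others were chosen after their values were seen. Binomial intervals of C1q shares cover counting error only, whereas intervals of log2 fold changes come from the edgeR fit.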

Additional observations from a re-analysis of the deposited data

How the results depend on the processing

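The count of called transcripts among the 10 was 1 with RLE scaling, limma-voom, a filter of 1 CPM in 2 libraries and thinning, 0 with upper-quartile scaling, 5 with DESeq2, 7 without a filter on low counts and 3 at an adjusted p under 0.10 (40.3% of all genes there). Leaving out 1 library gave 0 to 4 of the 10 and 1869 to 2747 of all genes, against 4380 in full, and DESeq2 called 2876 genes. With the replicate number as a block, 0 of the 10 and 2292 genes were called. The deviations of equally numbered libraries correlated at -0.323 over 13861 genes. With 2 libraries in each group, this rests on a single contrast. It cannot show whether equally numbered libraries shared a day or batch. A crossed replicate block (WT 1 with cKO 2), chosen after seeing the data, called 9 of the 10, all lower, and 6713 genes. These 6713 were 48.4% of genes tested, and 23% of genes tested were called lower. The sign turned for Adgre1 without WT 2 (0.13) and without cKO 2 (0.07), for Csf1r without WT 2 (0.24) and without cKO 2 (0.14), and for Cd68 without WT 1 (-0.11) and without cKO 1 (-0.10). Over the 4 omissions the log2 fold changes ran from -0.62 to 0.13, from -0.53 to 0.24 and from -0.11 to 0.18 in the same order. The other 7 kept a negative sign in all 13 alternatives, but over the omissions Mrc1 ran from -1.13 to -0.11, Vcam1 from -0.93 to -0.13, Spic from -0.93 to -0.44, C1qa from -0.76 to -0.24, C1qb from -0.70 to -0.19, C1qc from -0.85 to -0.29 and Hmox1 from -0.66 to -0.31. The cause was not tested. Each of the 10 had 167 (Spic) to 4596 (Csf1r) reads in a library. Without the filter the SE of Vcam1 went from 0.30 to 0.17.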
